A study of Mus musculus with 4 samples.

Results

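The genes described here are 10 genes used as a signature of the macrophages that live in the dermis: Cd163, Lyve1, Folr2, Igf1, Cbr2, Stab1, Cd209f, Gas6, F13a1 and Mrc1. They are 10 of the 31053 genes in the count tables, and they were chosen by their levels in these same libraries, after Cd163 and Igf1 had been seen to be lower in tumors, so that their tumor values are a description and carry no test. Single-cell RNA-sequencing (10x Genomics, 3' end) was performed on CD45+ DAPI- cells, that is, living immune cells, sorted from 2 control skins and 2 skin tumors, with 1 library each. The control skin came from C57/BL6 mice that received no tumor cells. The skin tumors came from C57/BL6 mice injected in the flank with the 2323 cell line, one cell line derived from a tumor of a K14rtTA/tetOCre mouse with P53-/-, in which the Cre was driven by a keratin promoter; the hosts were young adults of both sexes with an intact immune system. Nothing in the labels says whether a library came from 1 animal or from pooled animals, or when it was made, so the tests below measure only the spread between these libraries, and with 2 against 2 an exact permutation test of a single value cannot go below p = 0.333.

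Dermal macrophages sit along vessels and between collagen fibers, where they clear debris, take up iron-bearing proteins and support the tissue. The 10 genes cover these tasks: receptors for uptake (Cd163, Mrc1, Stab1, Lyve1, Folr2, Cd209f), secreted factors (Igf1, Gas6), a cross-linking factor (F13a1) and a carbonyl reductase (Cbr2). Several of them are classically used to separate long-lived resident macrophages from cells that recently arrived as monocytes. F13a1 does not do so here, as its highest level was in cells with monocyte genes.

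A unique molecular identifier (UMI) marks one captured RNA molecule, and a level is given below as UMIs per 10,000 UMIs of the same cells. After the filters and doublet removal, 1954 to 4555 cells were kept per library, with a median of 10283 to 13236 UMIs per cell, and pairs of libraries shared 1 to 7 cell barcodes. Cells with at least 1 UMI of Csf1r, the receptor that macrophages need to survive, numbered 835 and 1133 in control skin and 2483 and 1052 in the tumors. The macrophage gate, which is those cells less any above a marker cut for lymphocytes, mast cells, neutrophils, Langerhans cells, type 1 or mature dendritic cells, fibroblasts or keratinocytes, kept cells with UMIs of such markers below the cut and Csf1r-positive cells with the type 2 dendritic markers Cd209a or Flt3, and held 180 and 425 cells in control skin and 2258 and 795 cells in the tumors. Cells of the gate with at least 10 complement C1q UMIs per 10,000 are called C1q-high here and numbered 46, 171, 1626 and 557 in control skin 1, control skin 2, skin tumor 1 and skin tumor 2; values are listed in this order throughout. Control skin 1 therefore gave the fewest cells to the values of these sets, though not to those of every other gate below. Csf1r-positive cells that also carried lymphocyte, mast cell or neutrophil markers, and cells with markers of several lineages, were left out as mixed and made up 10.7%, 11.6%, 1.30% and 11.2% of the kept cells.

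The 10 genes were higher in the macrophage gate in a fit over all 4 libraries, which tests no library singly. Lyve1 had 0 UMIs in the gate of control skin 1. Against the Csf1r-negative cells of the same libraries, 10 of 10 were higher in the macrophage gate by edgeR's quasi-likelihood test with the library as a block, beside 20.9% of all 15182 genes tested (21.7% were lower). Their log2 differences ran from 2.72 ± 0.21 (standard error) for Cd163, adjusted p = 0.000415, to 4.68 ± 0.71 for Lyve1, adjusted p = 0.00364, with a median of 3.75 against -0.06 over all genes. The lowest adjusted p was that of Mrc1 (0.000158) and the highest that of Cd209f (0.00943), both from edgeR. Because they had been listed as macrophage genes, this checks the list and adds nothing to it. When each cell was thinned to 3000 UMIs, a C1q-high cell held on average 1.73, 2.64, 1.48 and 1.60 of the 10 genes, whereas a T cell with fewer than 3 Trdc UMIs held 0.0337, 0.140, 0.0557 and 0.133.

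The signature did not move as one between control skin and skin tumor. In the macrophage gate the median log2 difference of the 10 genes was -0.38, against 0.04 over all 12520 genes tested, with a range from -4.55 for Cd163 to 3.57 for Lyve1. In UMIs per 10,000, both tumors lay below both controls for 4 genes (Cd163, Igf1, Cd209f and F13a1), as 16.0% of all genes did, and above both for 3 genes (Lyve1, Folr2 and Stab1), as 38.1% did. Cbr2, Gas6 and Mrc1 overlapped. At an adjusted p under 0.05, 2 of the 10 were among the lower genes, Cd163 and Igf1, beside 1.16% of all genes, and 0 of the 10 among the higher genes, beside 0.711%; the choice of the list used this contrast, and nothing is read from these counts.

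**Figure D1:**
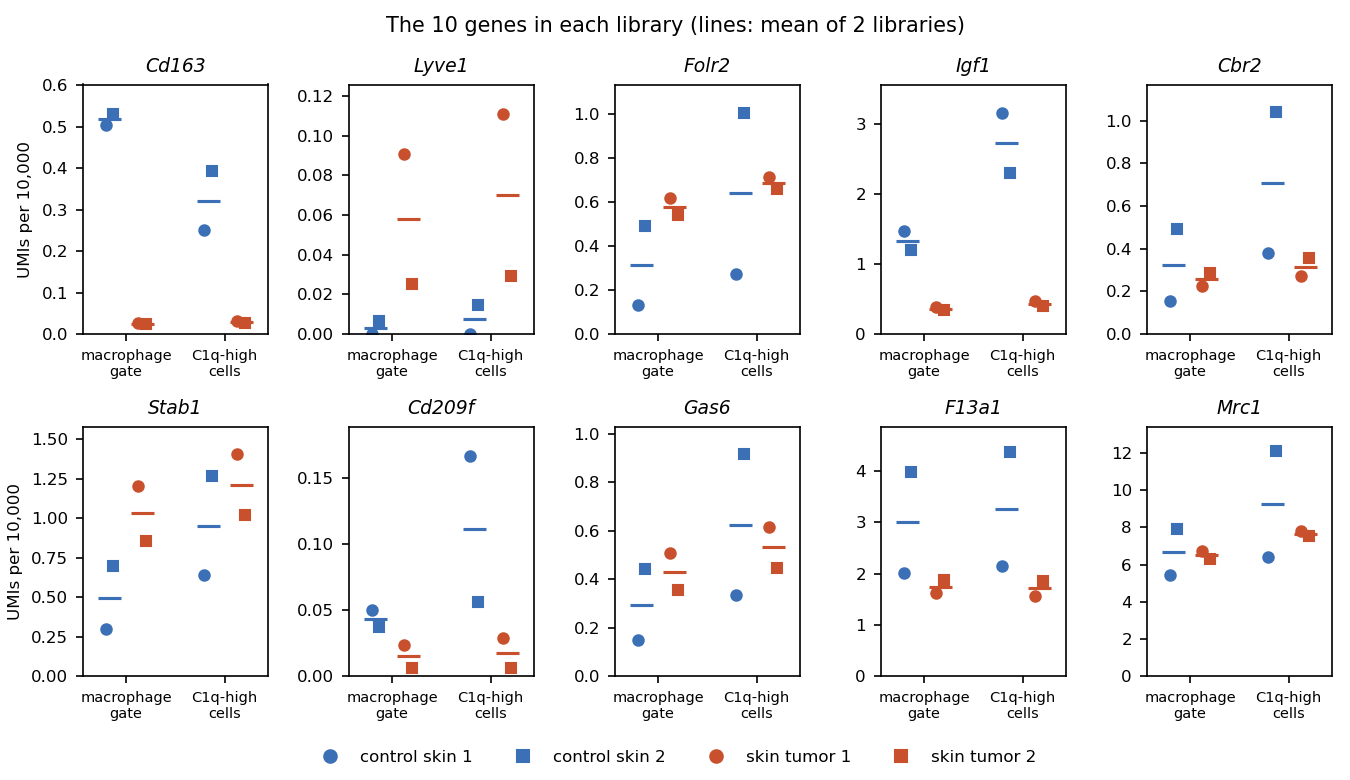
UMIs per 10,000 of each gene (y axis, one scale per gene, starting at 0) in the macrophage gate and in its C1q-high cells, with 1 point per library and a line at the mean of the 2 libraries of a group. The tumor points of Cd163 and Igf1 lie far below the control points in both sets of cells, those of Lyve1 lie above, and for Folr2, Stab1, Gas6 and Mrc1 the C1q-high tumor points lie between or near the control points.

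The start regions of Cd163 and Folr2 are shown because these receptors, often used side by side to mark resident macrophages, parted in these data. Each line gives the 250 bases before the RefSeq start on GRCm38.p6, 5' to 3' on the strand of the gene, chr6:124304401-124304650 on the plus strand for Cd163 and chr7:101857191-101857440 on the minus strand for the more upstream of the starts listed for Folr2. Capitals mark the core of the site for PU.1, the factor that macrophages depend on (AGGAAGT on either strand).
Cd163: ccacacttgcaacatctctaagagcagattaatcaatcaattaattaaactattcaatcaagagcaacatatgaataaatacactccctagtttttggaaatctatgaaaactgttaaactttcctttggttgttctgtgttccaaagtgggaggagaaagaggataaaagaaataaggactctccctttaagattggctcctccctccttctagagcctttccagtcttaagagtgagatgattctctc
Folr2: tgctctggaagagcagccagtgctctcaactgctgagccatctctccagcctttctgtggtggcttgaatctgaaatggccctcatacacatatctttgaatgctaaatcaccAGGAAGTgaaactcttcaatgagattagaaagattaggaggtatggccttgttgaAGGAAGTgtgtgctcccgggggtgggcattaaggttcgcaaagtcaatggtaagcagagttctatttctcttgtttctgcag
The Folr2 window shown held 2 such cores, and the Cd163 window and that of the second Folr2 start held 0 each. Of 32851 mouse windows of this length, 7.69% held at least 1. Whether these letters bear on the levels was not tested. Of the 9 genes with an entry, Mrc1 and a second F13a1 start also held 1 PU.1 core each. The AP-1 site TGANTCA, present in 6.75% of windows, was found once each before Igf1, Cd209f and a second Folr2 start, and the letters searched for a MAF half-site (TGCTGAC), C/EBP (TTGCNNAA) and a STAT palindrome (TTCNNNGAA) were found before none of the 9. A match here is a run of letters and not a measured binding site.

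Cd163 (chr6:124304656-124330527), the scavenger receptor that takes up hemoglobin bound to haptoglobin, showed the largest difference downward. In the macrophage gate it stood at 0.503 and 0.532 UMIs per 10,000 in control skin and at 0.0262 and 0.0230 in the tumors, or 0.517 ± 0.0201 (SD, n = 2) against 0.0246 ± 0.0023. Both tumors were below both controls, the tumor mean being 0.0475 times the control mean, with a fitted log2 difference of -4.55 ± 0.22 (standard error). Fewer cells carried it and each carried less: after thinning, 8.82% and 5.81% of control cells and 0.635% and 1.02% of tumor cells had a Cd163 UMI. In the positive cells at full depth it stood at 3.45 and 2.40 UMIs per 10,000 in control skin and at 1.10 and 0.898 in the tumors.

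Much of the Cd163 of control skin lay outside the C1q-high macrophages. Csf1r-positive, C1q-low cells past a cut for Cd209a and Flt3, markers of type 2 dendritic cells, and below one for the monocyte genes Ly6c2 and Plac8 are called dendritic-marker cells here. Its highest levels were in these cells, at 1.56 and 1.73 UMIs per 10,000 (27 and 55 cells), and in Csf1r-negative cells with Cd209a, Flt3 or Clec10a, at 1.18 and 1.16 (19 and 47 cells). In the tumors these gates held 0 and 0.0868, and 0.0307 and 0, from 15 and 12 cells and from 101 and 35 cells. C1q-high cells of control skin were lower, at 0.250 and 0.393, and monocyte-marker cells of control skin had 0 Cd163 UMIs in 22 and 88 cells. These gates held few control cells, so the order between the dendritic gates is within their spread. C1q-low cells past both the dendritic and the monocyte cut were kept apart from these gates, and numbered 8, 10, 70 and 16.

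Within the macrophage gate, Cd163 was more frequent in cells with Cd209a, though in the tumors this rests on few cells. Of thinned macrophage-gate cells with a Cd209a UMI, 25.7% and 23.7% in control skin had Cd163, against 4.44% and 2.67% of those without. In the tumors it was 1.59% of 63 cells and 5.56% of 36, against 0.607% and 0.803%. In the C1q-low part, 25.8% and 21.6% of control cells with Cd209a had Cd163, against 4.26% and 1.67% without. In C1q-low tumor cells it was 0% of 57 and 0% of 25, against 0% and 0.495%. In C1q-high tumor cells it was 16.7% of 6 and 18.2% of 11, against 0.817% and 0.917%. Among the Csf1r-negative dendritic cells, 46.7% of 15 cells with Cd209a and 0 of 4 without it had Cd163 in control skin 1, but in control skin 2 the order was the other way, with 11.8% of 34 cells against 44.4% of 9. Over 58 sums of a gate and a library, the genes whose log2 level was most like that of Cd163, named here after their values were seen, were Cd209e (Pearson r = 0.847), Slc27a3 (0.794), Pianp (0.792), Cd209d (0.758) and Cd209b (0.723); the sums share libraries and are not independent. With cells carrying dendritic markers left out of the gate, the Cd163 difference was -3.37, and within C1q-high cells, which numbered 46 and 171 in control skin, it was -3.74 ± 0.33. A few cells carried much of the RNA, as the 10 highest cells held 80.3%, 52.0%, 67.6% and 82.4% of the Cd163 UMIs of the gate.

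**Figure D2:**
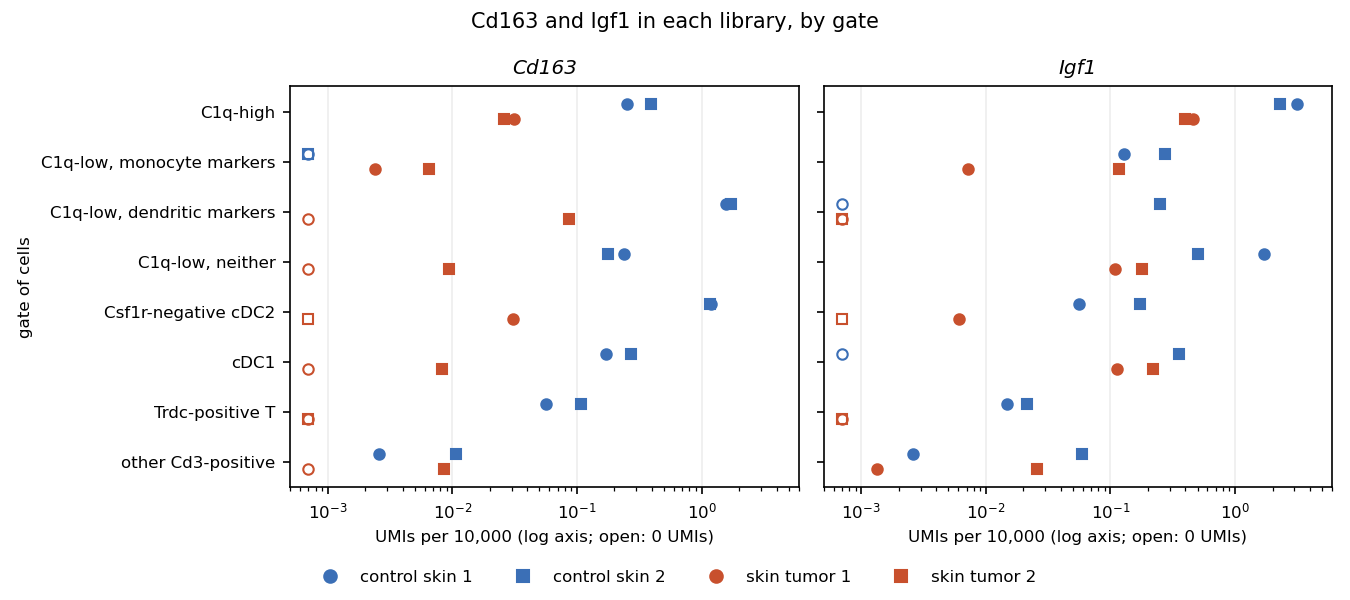
UMIs per 10,000 of Cd163 and Igf1 (x axis, logarithmic) in gates that share no cells (y axis), with 1 point per library and open symbols for 0 UMIs. The highest Cd163 levels were those of control cells with dendritic markers, at 1.16 to 1.73, and the highest Igf1 levels those of control C1q-high cells, at 2.29 and 3.15; tumor points lie to the left of control points in most gates.

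Igf1 (chr10:87858265-87937042), the insulin-like growth factor that macrophages secrete to support tissue repair, was the other gene far below control. In C1q-high cells it stood at 3.15 and 2.29 UMIs per 10,000 in control skin and at 0.464 and 0.397 in the tumors. The groups did not overlap and differed 6.32-fold in the means, with a log2 difference of -2.87 ± 0.24. In the whole gate the values were 1.46, 1.19, 0.384 and 0.337, a 3.68-fold difference and a log2 difference of -2.04 ± 0.17.

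C1q-high cells were the highest of the gates for Igf1 in control skin, and dendritic-marker cells held only 0 and 0.248 UMIs per 10,000 there. After thinning, 35.6% and 43.0% of control C1q-high cells and 9.14% and 8.45% of tumor C1q-high cells had an Igf1 UMI, with exact 95% binomial intervals of 21.9% to 51.2%, 35.4% to 51.0%, 7.77% to 10.7% and 6.28% to 11.1%. Positive cells held 5.52 and 3.50 UMIs per 10,000 in control skin and 1.78 and 1.57 in the tumors at full depth, so that both the share and the level in positive cells were lower.

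**Figure D3:**
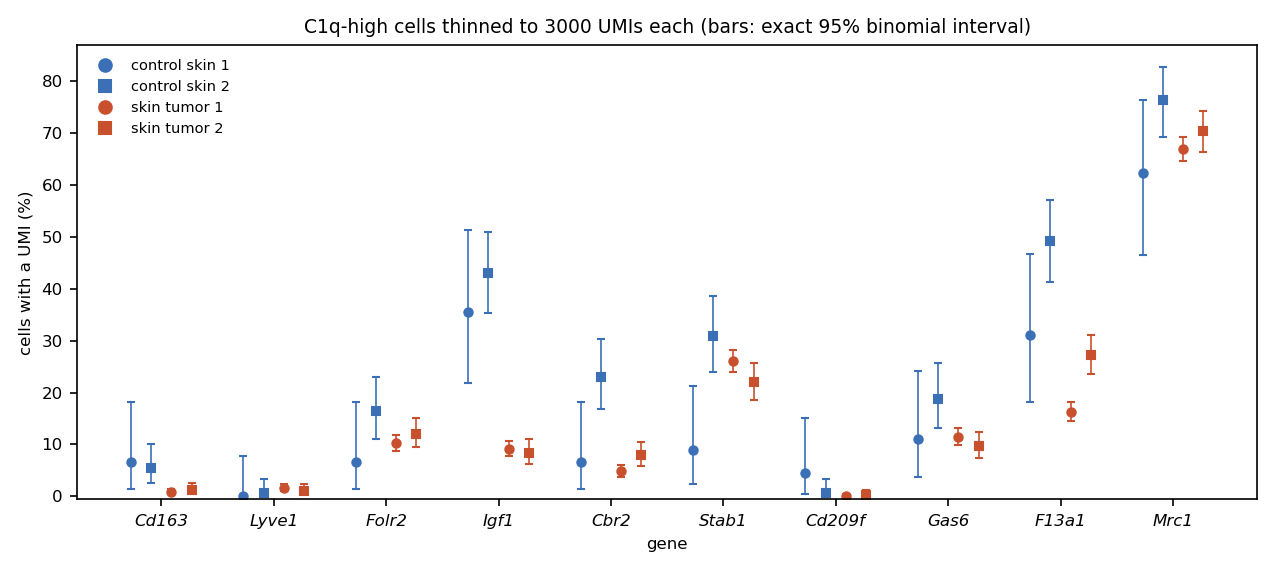
Share of C1q-high cells with at least 1 UMI of each gene (y axis, percent) after each cell was thinned to 3000 UMIs, per library, with exact 95% binomial intervals that cover counting error only. Igf1 separates the groups widely, at 35.6% and 43.0% against 9.14% and 8.45%, while the intervals of control skin 1, from 45 cells, are wide for every gene.

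Lyve1 (chr7:110850607-110863239), the hyaluronan receptor that names a class of perivascular macrophages, was nearly absent from these control skins. The macrophage gate held 0 and 4 Lyve1 UMIs in control skin and 363 and 37 in the tumors, or 0, 0.00642, 0.0906 and 0.0250 UMIs per 10,000. Both tumors were above both controls, but 0 of 180 cells in control skin 1 still allows a share of cells with a UMI of up to 1.67%. Over all Csf1r-positive cells the levels were 0, 0.0034, 0.0805 and 0.0196 UMIs per 10,000. The fitted log2 difference in the gate, 3.57 ± 1.01, rests on 4 control UMIs.

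In the tumors Lyve1 was carried by few cells. It was detected in 47 and 16 cells of the gate, and the 10 highest held 77.4% and 83.8% of its UMIs. After thinning, 26 and 6 C1q-high tumor cells had Lyve1, of which 61.5% and 66.7% also had Folr2, against 9.42% and 11.5% of the cells without it. The same cells had F13a1 in 76.9% and 100% of cases, against 15.3% and 26.4%. The sets are small, and only the first of the tumors gave more than 10 such cells. The markers of endothelium, of which the lymphatic kind also expresses Lyve1 in skin, summed to 0.319, 0.263, 0.389 and 0.323 UMIs per 10,000 in the gate, with Ccl21a at 0 in all 4 libraries and Prox1 at 0 in both tumors. Pecam1 alone gave 0.308, 0.241, 0.379 and 0.306 of this sum, so the sum says little of lymphatic cells.

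Stab1, Folr2 and Mrc1, which take up modified lipoproteins and matrix fragments, folate and mannose-bearing glycoproteins, did not share the low tumor values of Cd163. Stab1 (chr14:31139013-31168641) stood at 0.298, 0.694, 1.20 and 0.858 UMIs per 10,000 in the gate, both tumors above both controls, and at 0.643, 1.26, 1.41 and 1.02 in C1q-high cells, where the groups overlapped. Folr2 (chr7:101839988-101857194) stood at 0.131, 0.493, 0.621 and 0.540 in the gate and at 0.274, 1.01, 0.715 and 0.662 in C1q-high cells. Mrc1 (chr2:14229392-14332057) stood at 5.46, 7.94, 6.72 and 6.31 in the gate and at 6.43, 12.1, 7.83 and 7.52 in C1q-high cells. For these receptors, the C1q-high tumor values lay close together and within or just past a wide control range.

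The direction of these receptors depended on which cells were compared. Over all Csf1r-positive cells, both tumors were above both controls for 5 genes, Lyve1, Folr2, Stab1, Gas6 and Mrc1, beside 40.4% of 14752 genes, and below for 2, Cd163 and Igf1, beside 29.9%. Stab1 was 0.146, 0.322, 1.11 and 0.784 UMIs per 10,000 there, and was among the higher genes at an adjusted p under 0.05, which 7.86% of genes passed, as Cd163 and Igf1 were among the lower, which 12.3% passed. The choice of the list used the tumor and control values, so nothing is read from these calls. The control libraries held 405 and 372 Langerhans cells, the macrophage-like cells of the epidermis, against 5 and 7 in the tumors, and control Langerhans cells held 0.0223 and 0.0734 Stab1 UMIs per 10,000. These cells were gated by Cd207 without regard to Csf1r, and how many were Csf1r-positive was not counted. The log2 difference of Stab1 fell from 1.91 ± 0.43 in all Csf1r-positive cells to 0.85 ± 0.38 in the gate and 0.09 ± 0.32 in C1q-high cells. The part of the Langerhans cells in the wider difference was not tested beyond these gates.

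**Figure D4:**
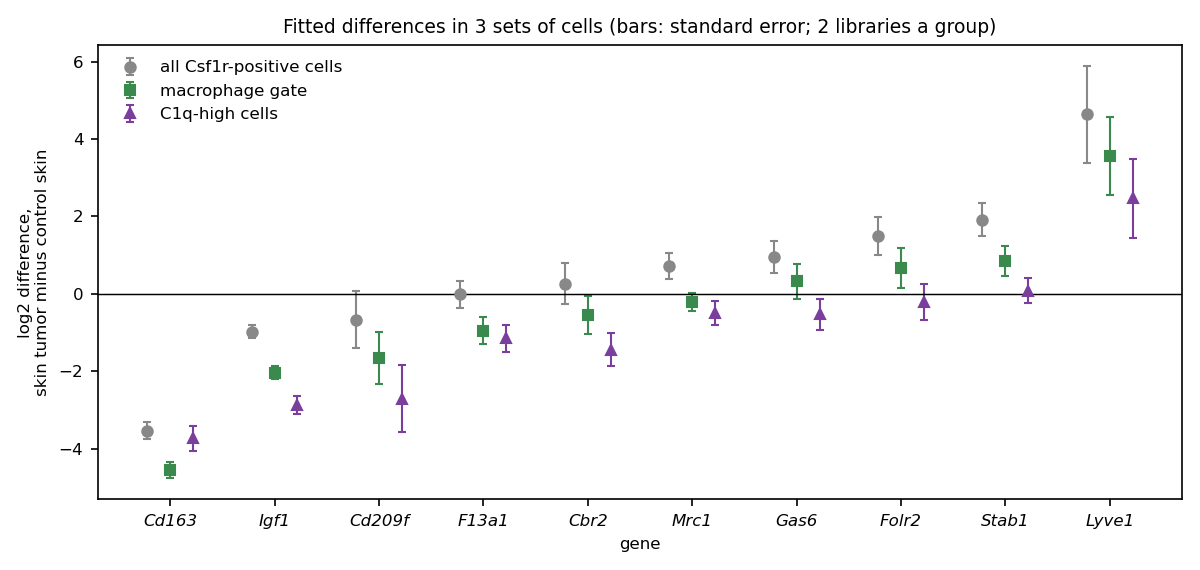
Fitted log2 difference, skin tumor minus control skin (y axis), of each gene (x axis) in all Csf1r-positive cells, in the macrophage gate and in C1q-high cells, with standard errors from the fit. Cd163 and Igf1 are below 0 in all 3 sets and Lyve1 is above 0 in all 3, while Stab1 falls from 1.91 to 0.09 and Folr2 from 1.50 to -0.20.

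Mrc1 was also a gene of dendritic-marker cells. These held 7.69 and 7.92 UMIs per 10,000 of it in control skin and 1.44 and 4.12 in the tumors, and Csf1r-negative cells of that kind held 5.91, 6.80, 0.632 and 0.842. Both tumors were thus below both controls in each of these gates, in which Cd163 was lower as well. Within the C1q-low cells as a whole Mrc1 was 5.05, 4.76, 1.81 and 1.85, while in C1q-high cells it overlapped. Mrc1 also overlapped in C1q-low cells past the monocyte cut only and in those past neither cut, as did Gas6. In C1q-low cells past both cuts, Mrc1 was lower in both tumors. The make-up of C1q-low cells differed, with 22 of 134, 88 of 254, 369 of 632 and 123 of 238 past the monocyte cut only. The part of this make-up in the difference was not tested. In C1q-low cells 6 of the 10 genes had both tumors below both controls (Cd163, Igf1, Cbr2, Gas6, F13a1 and Mrc1), beside 15.8% of 10338 genes, and 1, Stab1, above, beside 32.9%. Cd163 and Mrc1 were among the lower genes there at an adjusted p under 0.05, which 1.04% of genes passed, and 0 were among the higher, which 0.619% passed. As in the whole gate, nothing is read from these counts. Lyve1 and Cd209f did not pass the filter on low counts in these cells, and the other 8 did.

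Cd209f (chr8:4102787-4105835), a C-type lectin of the DC-SIGN family, was rare in every library. The gate held 14, 23, 94 and 9 UMIs of it, in 2, 7, 7 and 6 cells, or 0.0496, 0.0369, 0.0235 and 0.0061 UMIs per 10,000. Both tumors were lower, but single cells set these values, as 1 cell of skin tumor 1 held 48 of its 94 UMIs. Cd209f therefore gives no stable level for either group.

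Gas6 (chr8:13465374-13494490), the ligand that bridges dying cells to the receptors Axl and Mertk, overlapped between the groups. Its level was 0.149, 0.440, 0.507 and 0.354 UMIs per 10,000 in the gate and 0.333, 0.916, 0.616 and 0.445 in C1q-high cells. The tumors lay within the range of the 2 controls in C1q-high cells, and in the gate skin tumor 1 lay just above it.

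F13a1 (chr13:36867178-37050244), the A subunit of the clotting factor that cross-links fibrin, was 2.02, 3.99, 1.62 and 1.87 UMIs per 10,000 in the gate and 2.15, 4.37, 1.57 and 1.85 in C1q-high cells. Both tumors were lower, though tumor 2 and control 1 differed by less than the controls did. Its highest gate was that of C1q-low cells past the cut for Ly6c2 and Plac8, genes of monocytes, and below the dendritic cut, at 3.95 and 5.57 in control skin and 2.30 and 2.86 in the tumors. In that gate Folr2, Gas6 and Cbr2 were 0.0637, 0 and 0.0637 in control skin 1, and the highest value of any of them in a library was 0.226, for Folr2 in skin tumor 1.

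Cbr2 (chr11:120729489-120732114), a carbonyl reductase, overlapped in the gate at 0.156, 0.492, 0.227 and 0.287 UMIs per 10,000. In C1q-high cells it was 0.381, 1.04, 0.274 and 0.358, both tumors below both controls by a margin that was small beside the gap between the controls. In C1q-high cells as a whole, 5 genes had both tumors below both controls (Cd163, Igf1, Cbr2, Cd209f and F13a1), beside 11.2% of 11627 genes, and 1 above (Lyve1), beside 39.2%. Cd163 and Igf1 were also the members among the lower genes at an adjusted p under 0.05, which 0.163% of genes passed, and 0 members were among the higher, which 0.163% passed. Here too, the choice of the list used this contrast and nothing is read from these counts.

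**Figure D5:**
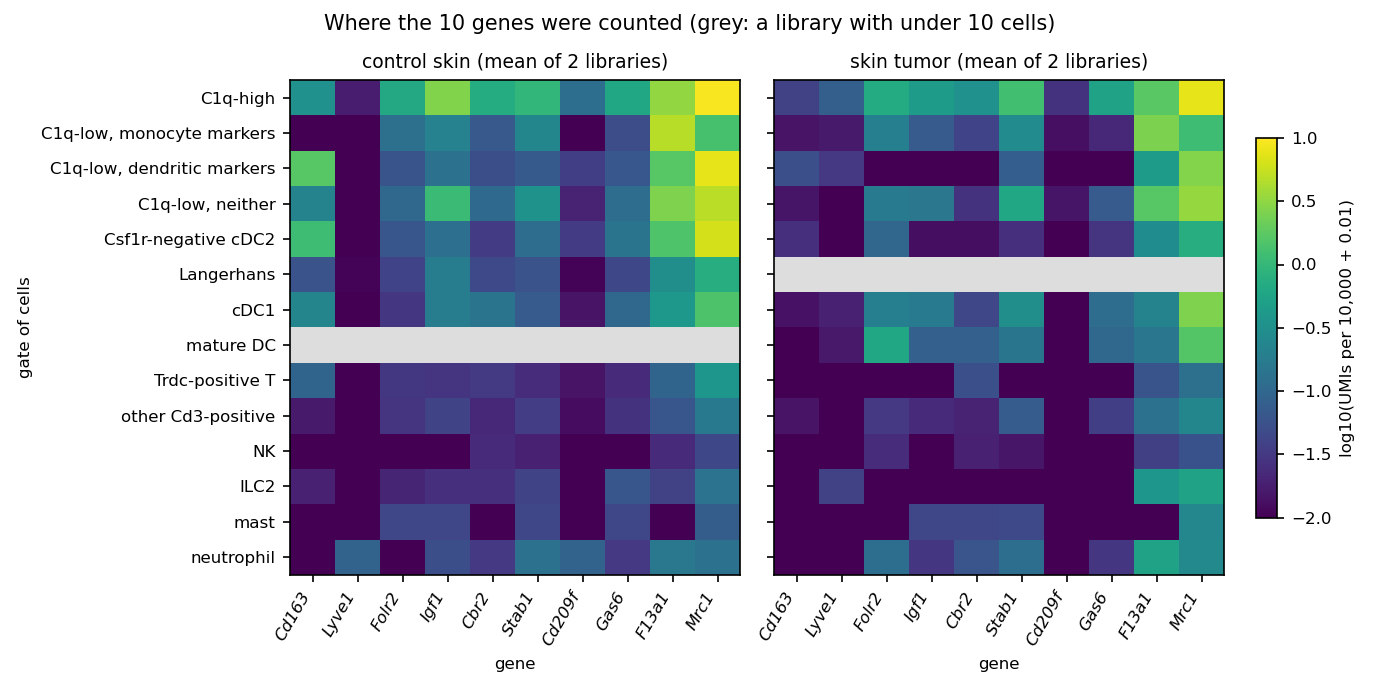
Mean UMIs per 10,000 of the 10 genes (x axis) in 14 gates of cells (y axis) in control skin and in skin tumor, as log10 of the level plus 0.01, with grey where a library held under 10 cells. C1q-high cells have the highest level of most of the genes in control skin, Cd163 is brightest in control cells with dendritic markers, and F13a1 in C1q-low cells with monocyte markers.

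The genes were unevenly tied to one another. Over the 58 sums of a gate and a library, the Pearson r of log2 levels between 2 of the 10 genes ran from -0.04 for Cd163 with Lyve1 to 0.807 for Igf1 with Gas6. Among pairs without Lyve1 or Cd163, the lowest r was 0.400, for Folr2 with Cd209f. Folr2 with Stab1 had 0.777, and Cd163 with Folr2 only 0.216. The genes most like the sum of the 10 were Abca9 (r = 0.933), a lipid transporter; Lgmn (0.905) and Ctsb (0.902), lysosomal proteases; Clec4a1 (0.895), a lectin receptor; and Ccl9 (0.893), a chemokine. The sum of the 10 was weighted to Mrc1 and F13a1. In the macrophage gate Mrc1 gave 1541, 4946, 26939 and 9330 UMIs and F13a1 569, 2485, 6488 and 2762, the most of the 10 genes. Abca9 also had an r of 0.914 with Mrc1 alone, and Lgmn 0.839 with F13a1 alone. All of these r values describe sums that share libraries and depth.

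Several relatives of Cd209f in the DC-SIGN family were lower in the tumors. Of 11 C-type lectin genes tested in the gate by edgeR, 4 were lower and 1 higher in the tumors, with a median log2 difference of -0.90 against 0.04 over all genes. Cd209a, the DC-SIGN homolog of dendritic cells, fell from 3.13 and 1.86 to 0.245 and 0.231 UMIs per 10,000 (adjusted p = 0.00895, edgeR). Cd209e fell from 0.163 and 0.154 to 0.0025 and 0.0047, and Cd209d from 1.46 and 0.890 to 0.0242 and 0.0514. Cd209b fell as well, from 0.0780 and 0.0225 to 0.00075 and 0.0014, and Clec4n, a receptor for fungal sugars that falls outside the rule for named genes, rose from 0.847 and 0.588 to 2.31 and 3.19. The tumor values of Cd209b are at or below the level of 3 counts in the gate, 0.00075 and 0.0020, so the size of its fall is uncertain. In C1q-high cells, 2 of 9 tested were lower, Cd209a and Cd209d.

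Of 9 genes tested for Gas6 receptors and uptake of dying cells, Axl, a receptor of Gas6, rose from 0.655 and 0.675 to 1.90 and 1.76 UMIs per 10,000 (log2 difference 1.29 ± 0.15), and Mfge8, a bridging protein that Langerhans cells also express, fell from 0.641 and 0.358 to 0.0312 and 0.0751. Mertk, the other Gas6 receptor named above, stood at 0.227, 0.403, 1.53 and 0.739 and did not pass the threshold (adjusted p = 0.0991, edgeR). In C1q-high cells 0 of the 9 genes passed by edgeR, 5 had an unadjusted p under 0.05 and DESeq2 called 2 lower, and the log2 difference of Axl was 0.61 (adjusted p = 0.263, edgeR). The lists of this paragraph hold none of the 10 genes, so Igf1 and Cd163, both lower in the gate, are not in their counts. In the insulin-like growth factor system 6 were tested, 0 at an unadjusted p under 0.05. Folate and one-carbon enzymes had 6 tested and 0 at that p, and heme and iron handling 10 tested and 4 at that p. No gene of these lists passed the adjusted threshold of edgeR, and DESeq2 also called 0 in each. Of 9 scavenger receptors tested, Scarf1 rose, from 0.0248 and 0.0353 to 0.174 and 0.138, and 0 fell by edgeR, while 6 of the 9 had an unadjusted p under 0.05, the median log2 difference was -0.42 and DESeq2 called 2 higher and 4 lower. Cd36, a receptor for oxidized lipids named here after its values were seen, stood at 4.90, 3.76, 0.713 and 1.56 (adjusted p = 0.0666, edgeR). In C1q-high cells 0 of 7 scavenger receptors passed by edgeR, 5 had an unadjusted p under 0.05, and DESeq2 called 1 higher and 3 lower. In the insulin-like growth factor system, edgeR called 0 and DESeq2 called 1 lower in C1q-high cells.

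Other macrophage lists gave few calls. Of 14 further perivascular macrophage genes, C4b, a complement component, rose and Cd209d fell. Of the 12 transcription factors reported, Irf8 and Tfec rose and 0 fell, with Maf and Klf4 not past the threshold. Of 12 core macrophage genes, which include the C1q genes that divided the gate, 0 passed by edgeR, 5 had an unadjusted p under 0.05 and DESeq2 called 4 higher. Of the 11 monocyte genes reported, 0 passed by edgeR, 5 had an unadjusted p under 0.05 and DESeq2 called 2 lower. Of 14 genes often reported in tumor macrophages, 4 rose and 0 fell: Nos2 from 0.0071 and 0.0032 to 0.176 and 0.158 UMIs per 10,000, together with Ccl5, Il1b and Mmp14. C1q-high cells made up 25.6%, 40.2%, 72.0% and 70.1% of the gate, and within them Nos2, Ccl5 and Cd209d kept their calls, while those of C4b, Irf8, Tfec, Il1b and Mmp14 ended, with adjusted p from 0.0682 for Il1b to 0.18 for Mmp14 by edgeR and both tumors above both controls for each.

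Some markers of other cell types differed between the groups inside the gate. The 6 Langerhans markers summed to 5.31, 2.73, 1.51 and 1.53 UMIs per 10,000 and the 6 T cell markers to 0.450, 0.316, 0.0487 and 0.0805, with Cd207 (0.602, 0.308, 0.0037 and 0.0074), Epcam and Trdc lower in the tumors. Il1r2 alone gave 2.92, 1.53, 1.28 and 1.16 of the Langerhans sum, most of it in the tumors. The 6 fibroblast markers summed to 0.163, 0.225, 0.0349 and 0.0595, with Pdgfra at 0 in 3 of 4 libraries and Col1a2 lower. The 5 keratinocyte markers summed to 0.0602, 0.0594, 0.0157 and 0.0162, the 5 mast cell markers to 0.0319, 0.0867, 0.0674 and 0.0710, and the 5 neutrophil markers to 0.556, 0.617, 0.784 and 0.852, with 0 called of 3, 2 and 4 tested. Csf3r alone gave 0.485, 0.557, 0.705 and 0.718 of the neutrophil sum. Of the endothelial list, 1 was tested and 0 called. The 14 dissociation stress genes summed to 75.6, 81.8, 100 and 103, with Hspa1a higher in the tumors in the gate but not past the threshold in C1q-high cells (adjusted p = 0.415, edgeR). Trdc-positive T cells of control skin, which should lack Cd163, held 0.0567 and 0.108 Cd163 UMIs per 10,000, and 0.158% and 1.70% of them had a Cd163 UMI after thinning, below the 8.82% and 5.81% of the control gate. The Cd163 levels of the tumor gate given above lay below both of these T cell levels, and its thinned shares lay between these T cell shares. The part of RNA from other cells in the differences of the 10 genes was not tested.

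The gate left out many control macrophage transcripts along with the mixed cells. These held 43.3% and 26.9% of the Cd163 UMIs of the control libraries and 40.7% and 38.7% of their Igf1 UMIs, at a median of 27320 and 26819 UMIs per cell. Tumor cells were left out as mixed as well, 1.30% and 11.2% of the kept cells, at a median of 10588 and 26049 UMIs. Their shares of the tumor UMIs of Cd163 and Igf1 are not given here. With the mixed Csf1r-positive cells kept, an alternative chosen after the data were seen, the log2 difference was -3.93 for Cd163 and -1.40 for Igf1, and that of Mrc1 turned from -0.21 to 0.30. Fewer cells of a type in the skin and fewer that came through dissociation and sorting cannot be told apart here.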

How the data were processed

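Single-cell RNA-seq of sorted CD45+ DAPI- cells was deposited as 1 matrix of raw UMI counts per library, which the authors made with Cell Ranger on mm10 (version 7.1.0 per the submitters' processing notes; the file headers name another release). Whether intronic reads were counted is not given in the sources used here. The deposited counts were not normalized.

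The cell filters followed the study's methods: a minimum of 1000 UMIs and of 100 detected genes, a mitochondrial share no higher than 15%, and a complexity (log10 genes over log10 UMIs) no lower than 0.8. Doublets were scored against simulated doublets and 40 to 229 cells per library were removed. Cells were gated by UMIs of marker genes, not clustered. UMIs were summed per library and gate and tested with edgeR 4.0.16 (TMM, filterByExpr, quasi-likelihood test, Benjamini-Hochberg adjustment over all genes tested, threshold 0.05) in R 4.3.3; DESeq2 1.42.0 was an alternative. The study tested single cells; libraries were the replicates here. The scripts were tested on simulated data with the means and dispersions of these libraries, in which 200 genes were changed. At a log2 change of 1, the edgeR test recovered 0.518% of the changed genes it tested in the gate and 0% in C1q-high cells. At a log2 change of 2 it recovered 74.7% and 71.1%. A gene or list that did not pass the threshold is therefore not shown to be unchanged. For shares of positive cells, every cell was thinned to 3000 UMIs and shallower ones were left out, with exact (Clopper-Pearson) 95% intervals, which cover counting error only; a count of 0 was read as up to 3 counts. Deposited depth was 34893543 to 73904272 UMIs per library.

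The 10 genes and the 19 gene lists were chosen with earlier results of these data known; a few items, among them members of the monocyte and transcription factor lists, are not reported here and are left out of the lists' counts. All 10 genes were named in each gate; from each list, up to 4 genes were named, those with the largest absolute log2 difference among those past the threshold whose libraries did not overlap; and the 5 genes most like the summed 10 were named by Pearson r of log2(CPM + 1) over sums of at least 20 cells. Gene coordinates came from GENCODE on GRCm38 and start regions from RefSeq on GRCm38.p6, in which 9 of the 10 genes had an entry (Lyve1 had none). Alternatives covered the normalization, the filters, the gates, the thinning, the replicate block and leaving out each library.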

Additional observations from a re-analysis of the deposited data

Results flagged for a closer look

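Stab1 was singled out because tumor and control libraries were ordered one way in one gate outside the macrophage gate and the other way in another. Only one of these orders rests on more than a few counts. In type 1 dendritic cells (gated by Xcr1 and Clec9a) the ratio of the tumor mean to the control mean was 4.64, with both tumors (0.315 and 0.271 UMIs per 10,000) above both controls (0 and 0.126), from 245 UMIs. In type 2 innate lymphoid cells (gated by Gata3, Il1rl1 and Il5) the ratio was 0, from 11 UMIs in all, with both tumors at 0 UMIs beside 0.0190 and 0.0445 UMIs per 10,000 in control skin. A count of 0 in these 40 and 23 tumor cells allows up to 0.173 and 0.279 UMIs per 10,000, which is above both control values, so that it gives no direction. A difference between these gates was not tested. The type 1 dendritic gate was not cleared of Csf1r-positive cells, and the macrophage gate made up 6.22%, 14.2%, 49.6% and 40.7% of the kept cells. Stab1 also had both tumors above both controls in Csf1r-negative cells as a whole, in mature dendritic cells and in cells of no gate. The part of macrophage RNA in the order seen in type 1 dendritic cells was not tested.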

How the results depend on the processing

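Cd163 and Igf1 kept their lower tumor level in the macrophage gate under all 14 alternatives, with log2 differences of -4.63 to -3.37 and -2.34 to -1.40; F13a1, Cd209f, Folr2, Stab1 and Lyve1 also kept their direction wherever they could be fitted. Cbr2 turned without control skin 2, Gas6 without control skin 1 and with thinned cells, and Mrc1 without control skin 2 and with mixed cells kept. The median of the 10 genes in the gate, -0.38, ran from -0.81 without control skin 1 to 0.38 without control skin 2, and was 0.08 with mixed cells kept. Counts of genes called moved more, and the cause was not tested. In the gate, 234 genes were called, against 795 by DESeq2, 1501 with no low-count filter, 402 without TMM, 79 without cells with dendritic markers, 1792 with mixed cells kept, and 23 (without control skin 1) to 1916 (without skin tumor 2) when 1 library was left out, with 49 without control skin 2 and 655 without skin tumor 1. In C1q-high cells, 38 were called, against 337 by DESeq2, 540 with no filter, 80 without TMM, 19 with thinned cells, 669 with mixed cells kept and 10 to 748 with 1 library left out. In C1q-low cells, 172 were called, against 412 by DESeq2, 1093 with no filter and 0 to 1164 with 1 library left out; edgeR called 0 without either control, where 882 and 1149 genes had an unadjusted p under 0.05. Over all Csf1r-positive cells, 2976 were called and 102 to 5723 with 1 library left out. Without TMM the median of all genes rose by 0.17 in the gate and 0.22 in C1q-high cells, and the higher and lower calls were 229 and 173 in place of 89 and 145 in the gate, 54 and 26 in place of 19 and 19 in C1q-high cells, and 1554 and 1606 in place of 1159 and 1817 over all Csf1r-positive cells. Among the listed genes, Cd207 and Trdc kept their call in the gate under all 14 alternatives.

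The replicate numbers are shared by the groups, but same-numbered libraries did not deviate together over genes (r = 0.018 in the gate). With 2 libraries per group, this r cannot show whether same-numbered libraries were handled together. With the number as a replicate block, 669 genes were called in the gate, 95 in C1q-high cells, 596 in C1q-low cells and 1201 over all Csf1r-positive cells. Depth limits Lyve1 and Cd209f most, and control skin 1, with 46 C1q-high cells, limits the control values of C1q-high cells.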
